A study of Mus musculus with 4 samples.

Results

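The sites described here are CTCF peaks inside the introns of very long protein-coding genes, which in the brain include many genes for synaptic adhesion proteins, receptors, ion channels and scaffolds. A peak was taken when its summit lay on an autosome, in no annotated exon, more than 1 kb from any transcription start site (TSS) and inside a protein-coding gene of 300 kb or longer in the GENCODE M21 basic annotation (mm10). The rule picked 8073 of the 90278 peaks of the between-replicate list, or 9.17% of the 88071 autosomal ones. They are called long-gene peaks below. Of the 541 genes that long, 537 were the longest protein-coding gene over some of the sequence that a summit could qualify in, and 533 of them held at least 1 long-gene peak. The rule used position only, so signal, motif and place along the gene were free to vary, and no test was run on membership.

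The measurement was ChIP-seq with an antibody to CTCF on hippocampal layer tissue from adult male B6CASTF1/J mice aged 2 months, whose parents are C57BL/6J and CAST/EiJ mice. There were 4 libraries, which formed replicate 1 and replicate 2, each from a pool of 7 tissue samples sequenced as 2 technical libraries. The labels name the same donor entry for both pools, so agreement between the replicates may measure technical spread only. No treatment, genotype or age was compared. Each replicate gave 1 signal value per peak, and the read depth is unknown, so the intervals below cover counting of peaks only. Tissue holds many cell types, and more cells bound at a site cannot be told apart from stronger binding in fewer cells. Transcription was not measured in the files used here.

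CTCF is a zinc-finger protein that binds an asymmetric DNA motif. Cohesin extrudes chromatin loops and tends to halt where it meets CTCF bound in a given orientation, so loops often form between motifs that face each other. Within genes, CTCF has been studied as a partner of enhancer-promoter contacts, of alternative promoter choice and of exon inclusion. Very long neuronal genes are transcribed over many hours and often hold several promoters and internal enhancers.

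The DNA under the strongest long-gene peaks with an exact match to the 12-letter CTCF core motif shows what a bound site looks like. The sequences are from the GRCm38 assembly, which mm10 names, on the motif's own strand from 5′ to 3′, and capitals mark the motif. Of the strongest such sites outside gene models that span many genes, 2 are shown, in Kcnip1, which encodes a partner of potassium channels, and in Aff3, which encodes a nuclear protein of the transcription elongation machinery.
Kcnip1 (chr11:33917756-33917785, minus strand): cagtgatgaCCAGCAGAGGGCgccacaggc
Aff3 (chr1:38185681-38185710, plus strand): cctcttccaCCACCAGAGGGCagtgtctcc

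The Kcnip1 site had a signal of 437.5 in replicate 1 and 476.2 in replicate 2 and lay 75.4 kb from the gene's 5′ end. The Aff3 site had 431.8 in replicate 1 and 466.8 in replicate 2, in intron 19 of 22 at 98.3% of the gene. Both were close to the top of the signal range in replicate 1 and in replicate 2.

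Introns of very long genes carried CTCF at about the density of sequence outside protein-coding genes and well below that of other introns. Per 100 kb of qualifying sequence there were 2.73 summits in very long genes, against 5.32 in introns of shorter protein-coding genes and 2.47 outside protein-coding genes. The ratio of very long to shorter genes was 0.513. In the list called from replicate 1 alone it was 0.512 (2.26 against 4.43), and in that of replicate 2 alone 0.512 (2.33 against 4.55). The ratio was below 1 on each of the 19 autosomes, between 0.357 on chromosome 15 and 0.663 on chromosome 7. The qualifying sequence amounted to 296.1 Mb in very long genes, 577.7 Mb in shorter genes and 1341 Mb outside.

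Density went down with gene length above 10 kb, so 300 kb is a place on a slope and not a step. It was 6.62 summits per 100 kb in genes under 10 kb, 6.69 in genes of 10 to 30 kb, 5.72 in genes of 30 to 100 kb, 4.69 in genes of 100 to 200 kb and 4.16 in genes of 200 to 300 kb. Among very long genes it was 3.20 in the 323 genes of 300 to 500 kb, 2.43 in the 163 genes of 500 to 1000 kb and 2.40 in the 55 genes of 1000 kb or longer. The last value fell to 1.89 when 8 gene models that each hold at least 5 other protein-coding genes were left out. The 2 widest of these models hold most of their peaks: Gm20388 is 4435 kb long and contains 71 other protein-coding genes, and Fgfr2, which encodes a fibroblast growth factor receptor, is annotated at 2961 kb with 29 others inside. Genes on either side of the limit had counts that overlap. Just inside it, Kcnq3 (300.3 kb) held 10 peaks, Pam (300.5 kb) held 11 and Nxph1 (300.6 kb) held 5. Just outside, Jazf1 (299.8 kb) held 17, Akap13 (299.1 kb) held 10 and Atp2b2 (298.8 kb) held 14.

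**Figure D1:**
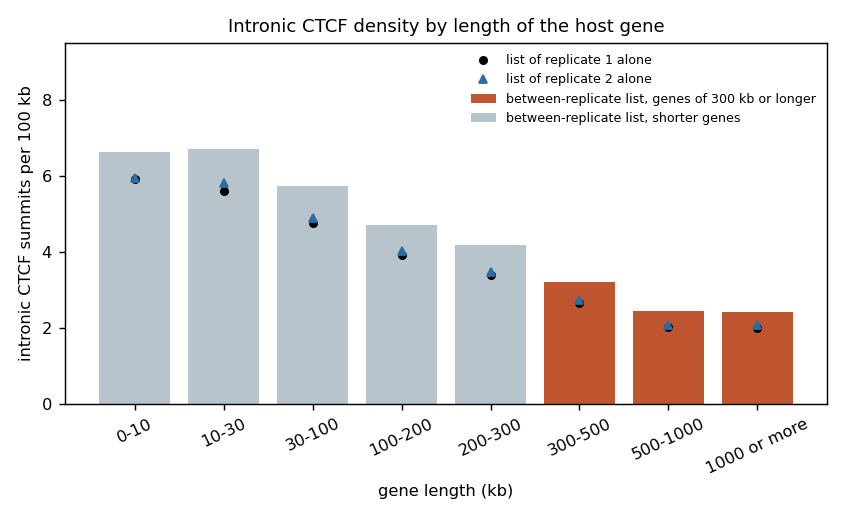
Intronic CTCF summits per 100 kb of qualifying intron (vertical axis) for protein-coding genes grouped by length in kb (horizontal axis). Bars show the between-replicate list, circles the list of replicate 1 alone and triangles the list of replicate 2 alone; density is 6.62 under 10 kb and goes down from 6.69 at 10 to 30 kb to 2.40 at 1000 kb or more.

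Base composition moved with density. Qualifying sequence was 40.8% GC in very long genes, 43.4% in shorter genes and 40.9% outside. In windows of 10 kb grouped by range of GC, very long genes had fewer summits in each range. The values were 0.923 against 2.08 per 100 kb at 30 to 36% GC, 2.32 against 3.93 at 40 to 42%, and 7.33 against 8.68 at 48 to 70%. Within a range the GC of the gene classes can still differ, so the part of GC in the difference was not tested. The ratio of very long to shorter genes was thus 0.445 in the most AT-rich windows and 0.845 in the most GC-rich. Across the 537 genes, density and the GC of the gene's introns had a Spearman rho of 0.78, density and length -0.23. These are descriptions across genes that share libraries.

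Matches to the CTCF motif were themselves sparser in very long genes. Exact matches numbered 0.360 per 100 kb, against 0.664 in introns of shorter genes, a ratio of 0.543. Matches with 1 mismatch numbered 6.03 per 100 kb, against 10.5, a ratio of 0.572. Where a match existed, it was occupied somewhat less often than in shorter genes. Of the 1066 exact matches in very long genes 71.3% had a summit within 50 bp (95% exact interval 68.5 to 74.0), against 76.2% (74.9 to 77.6) in shorter genes. For matches with 1 mismatch the shares were 17.5% (16.96 to 18.1) against 24.6% (24.3 to 24.9).

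The long-gene peaks themselves were as strong as other intronic peaks. Their median signal in the between-replicate list was 150.4 (quartiles 83.3 and 390.2), against 149.0 (82.0 and 400.9) in introns of shorter genes and 186.6 outside protein-coding genes. This score comes from the authors' peak calling and its scale is not stated. In replicate 1 the median long-gene peak had 73.8 and in replicate 2 79.0, against 74.0 and 79.0 for peaks in shorter genes. The log2 ratio of replicate 2 over replicate 1 had a median of 0.09 and an SD of 0.36 over long-gene peaks. Below the lower quartile of signal the SD was 0.60 and 14.5% of peaks were overlapped in both single-replicate lists, while above the upper quartile the SD was 0.09 and the share 99.5%. Statements on weak single peaks therefore rest on less. Before thresholding, 20378 ranked peaks lay in these introns, of which 39.6% passed an irreproducible discovery rate of 0.05 between replicates, against 44.2% of all autosomal ranked peaks.

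A motif lay at fewer of the long-gene peaks. With at most 1 mismatch, it was found within 50 bp of the summit at 3751 peaks, 46.5% (95% exact interval 45.4 to 47.6), against 55.8% (55.2 to 56.3) in introns of shorter genes and 55.0% outside. In windows of the same size 1 kb away the share was 0.904% for long-gene peaks and 1.33% for peaks in shorter genes. Exact matches were about as frequent in both, 9.33% against 9.38%. The motif was present at 28.0% of long-gene peaks below the lower quartile of signal and at 68.4% of those above the upper quartile. Summits also fell on soft-masked repeats less often in very long genes, 26.2% (25.3 to 27.2) against 40.5% (40.0 to 41.1) in shorter genes, although repeats made up 28.3% and 28.7% of the qualifying sequence.

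Each gene was divided into 10 bins of equal length, bin 1 at its 5′ end and bin 10 at its 3′ end. The density of long-gene peaks was highest in the outer bins. It was 3.24 per 100 kb in bin 1, 2.63 in bin 2, 2.47 in bin 3 and 2.29 in bin 4, and then 2.67, 2.50, 2.45, 2.85, 2.87 and 3.35 in bins 5 to 10. Bin 1 had 1.31 times and bin 10 had 1.35 times the 2.48 per 100 kb of bins 4 to 7. In replicate 1 alone bins 1, 4 and 10 had 2.74, 1.86 and 2.77, and in replicate 2 alone 2.79, 1.92 and 2.90. Bin 1 was above bins 4 to 7 on 18 of 19 autosomes, and bin 10 on 16. The ratio of bin 1 to bin 10 was 0.966, and it moved to 0.855 when sequence within 5 kb of any TSS was left out. GC content was 40.9% in bin 1, 40.5% in bin 5 and 41.5% in bin 10, and its part in the pattern was not tested. Genes of 100 to 300 kb had a like outline at a higher level, with 4.90 in bin 1, 4.24 in bin 5 and 5.23 in bin 10.

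**Figure D2:**
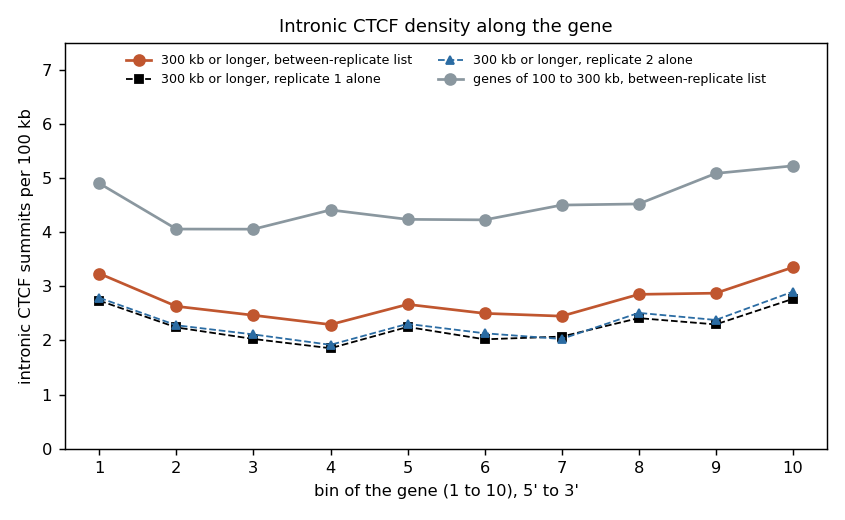
Intronic CTCF summits per 100 kb (vertical axis) in each of 10 equal bins of the gene from 5′ to 3′ (horizontal axis). The curve for genes of 300 kb or longer runs from 3.24 in bin 1 through 2.29 in bin 4 to 3.35 in bin 10, with a like shape in each replicate's own list, and lies below that of genes of 100 to 300 kb throughout.

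Counted in kb, the rise at the 5′ end was short. From 1 to 10 kb after the gene's start there were 5.57 peaks per 100 kb, from 10 to 25 kb 3.08, and beyond 200 kb 2.67. Before the gene's end the values were 3.78 from 1 to 10 kb, 4.15 from 10 to 25 kb, 3.27 from 25 to 50 kb and 2.55 beyond 200 kb. First introns held 1821 long-gene peaks at 2.98 per 100 kb, and last introns 348 at 2.38. Introns under 10 kb had 3.94 per 100 kb, while introns of 10 to 50 kb had 2.76 and those of 200 kb or longer 2.59. The 243 introns of 200 kb or longer together held 26.6% of the long-gene peaks. Peaks in bin 10 were also stronger, with a median signal of 194.4, against 152.5 in bin 1 and 142.1 in bin 5.

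The motif's strand changed along the gene. Over all 3688 long-gene peaks with a motif on 1 strand only, 50.5% (95% exact interval 48.8 to 52.1) had it on the sense strand of the host gene. In bin 1 the share was 63.6% (58.8 to 68.3, 259 of 407), and in bin 10 it was 39.6% (35.1 to 44.3, 181 of 457), so that at both ends the larger part of motifs pointed into the gene. Between the ends the share went from 55.7% in bin 2 through 51.1% in bin 6 to 46.4% in bin 9. In replicate 1 alone bins 1 and 10 had 64.7% and 37.7%, and in replicate 2 alone 66.2% and 38.2%. The share was higher in bin 1 than in bin 10 on 16 of 19 autosomes. The peaks of bin 1 came from 249 genes and those of bin 10 from 246.

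Motif matches with no summit within 1 kb lacked this change of strand. In the same introns 48.3% of 1440 such matches (95% exact interval 45.7 to 50.9) were on the sense strand in bin 1, and 49.6% of 1451 (47.0 to 52.2) in bin 10. Among long-gene peaks above the median signal, bin 1 had 64.5% and bin 10 had 35.9%. Below the median signal, bin 1 had 62.2% (54.1 to 69.8). Bin 10 had 48.2% of 139 there (39.65 to 56.8), an interval that includes 50%, so the change at the 3′ end was not seen in weaker peaks. With exact matches only, the numbers were small: 56.8% of 74 in bin 1 (44.7 to 68.2) and 43.9% of 107 in bin 10 (34.3 to 53.9), and both intervals include 50%. Genes of 100 to 300 kb showed the change too, with 62.8% in bin 1 and 37.2% in bin 10, so it is not particular to the longest genes. In genes of 500 kb or longer the shares were 61.6% in bin 1 and 45.4% in bin 10, so the 3′ end lay nearer 50% there. In genes under 100 kb the shares were 59.5% and 51.8%.

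**Figure D3:**
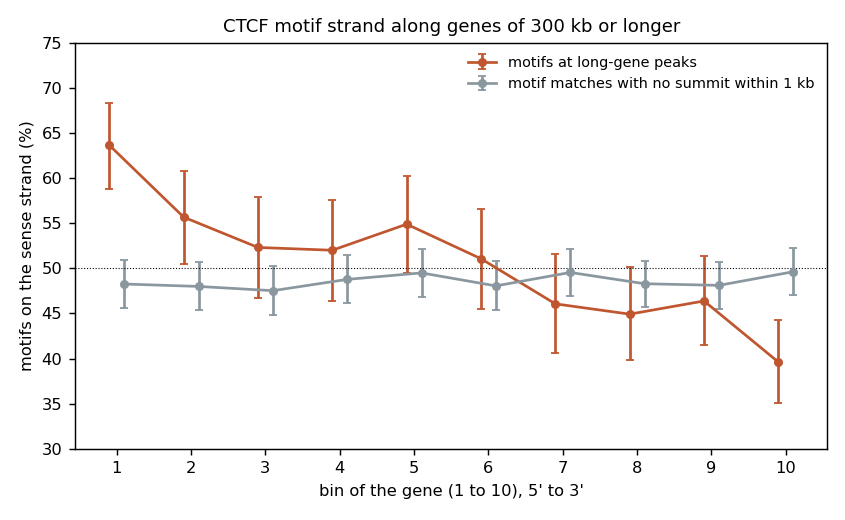
Percent of CTCF motifs on the sense strand of the host gene (vertical axis, which starts at 30) in each of 10 equal bins of genes of 300 kb or longer (horizontal axis), for motifs at long-gene peaks and for motif matches with no summit within 1 kb; bars are 95% exact intervals and the dotted line marks 50%. Motifs at peaks go from 63.6% in bin 1 to 39.6% in bin 10, while matches without a summit lie between 47.5% and 49.6%.

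The share was furthest from 50% close to the start. From 1 to 10 kb after the start 73.5% of 83 motifs (95% exact interval 62.7 to 82.6) were sense, from 10 to 25 kb 65.5% of 119 and from 100 to 200 kb 51.4% of 592. From 1 to 10 kb before the end 41.5% of 65 (29.4 to 54.4, an interval that includes 50%) were sense, from 10 to 25 kb 38.4% of 159 (30.8 to 46.4), from 25 to 50 kb 40.1% of 192 and from 100 to 200 kb 46.8% of 648. Outside the gene, counting peaks of every class and leaving out gene models that hold at least 5 other genes, 55.1% of 138 motifs were sense in the 10 kb upstream of the start (46.4 to 63.5) and 53.4% of 118 in the 10 kb downstream of the end (43.98 to 62.6). At 10 to 100 kb from the gene the shares ran from 52.5 to 56.5% upstream and from 51.2 to 57.5% downstream, with all intervals including 50%. Among neighbouring motif-bearing peaks of the same very long gene, 770 pairs faced each other, 729 faced away and 1673 shared a strand. Their median distances were 38.02, 25.99 and 30.9 kb. In shorter genes the pair counts were 2273, 2172 and 4787. Changes of strand along a gene alternate between facing and facing away, so those counts lie close together in any class. With overall sense shares near 50% the proportions were largely set in advance, and nothing is drawn from them.

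Sites that carry this pattern are shown for both ends. Outside gene models that hold at least 5 other protein-coding genes, the strongest exact, sense-strand motifs of bin 1 lay in Inpp4b, which encodes an inositol phosphatase, Cep112, which encodes a centrosomal protein, and Megf11, which encodes a transmembrane protein with EGF-like repeats. Those of bin 10 on the antisense strand lay in Aff3, shown above, in Lsamp, which encodes a neuronal cell adhesion protein, and in Pcca, which encodes a subunit of propionyl-CoA carboxylase. Capitals again mark the motif.
Inpp4b (chr8:81349627-81349656, plus strand): agacactcaCCACCAGGTGGCagtatgcag
Cep112 (chr11:108449969-108449998, plus strand): ccagcacatCCAGCAGAGGGCgctcgagta
Megf11 (chr9:64394346-64394375, plus strand): cagaggtggCCAGCAGGGGGCgctgggggc
Lsamp (chr16:42165114-42165143, minus strand): catctctgtCCACCAGGTGGCaacagtgag
Pcca (chr14:122876367-122876396, minus strand): gagtgcataCCAGTAGATGGCagcagattg

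The Inpp4b site lay 7.08 kb from the gene's start, with signals of 396.8 in replicate 1 and 435.3 in replicate 2. The Lsamp site lay in the last intron at 99.2% of the gene, 2181 kb from its start, with signals of 432.5 in replicate 1 and 452.6 in replicate 2. The Megf11 site was 8.73 kb from the start and the Pcca site at 95.9% of the gene.

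Single genes differed widely. The median gene held 12 long-gene peaks (quartiles 7 and 19) at 2.51 per 100 kb (1.47 and 3.80), and the range ran from 0 to 15.8 per 100 kb. The 127 genes with 20 or more peaks held 4074 of the 8073. Of the 537 genes, 61 lay above the average of shorter-gene introns, 11.4%. The ranking of genes was stable between the replicates: densities from the list of replicate 1 alone and of replicate 2 alone had a Spearman rho of 0.96 over the genes. A CTCF summit within 1 kb of one of the gene's own TSSs was present at 322 of the 537 genes, 60.0%. No such share is given for shorter genes, so this value cannot be called high or low.

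Of the 10 densest genes, 8 were under 500 kb. Fry, which encodes a large microtubule-associated protein, had 57 peaks in 379.1 kb, 15.8 per 100 kb, with 53 in the list of replicate 1 and 55 in that of replicate 2. Rere, a transcriptional co-regulator of the atrophin family, had 42 peaks at 12.97 per 100 kb (29 in replicate 1, 32 in replicate 2). Macf1, a linker of actin and microtubules, had 32 at 10.8, and Gabbr2, a subunit of the metabotropic GABA receptor, had 33 at 10.2. Mtus2, a microtubule-associated protein, had 34 at 9.93, and Tiam1, a Rac exchange factor that shapes spines, 33 at 9.69. Nav2, a cytoskeletal navigator protein, had 53 at 8.01, and Shank2, a scaffold of excitatory synapses, 32 at 7.99. The other two of the 10 densest were the models Gm20388 (8.80) and Gm20696 (8.21). Intron GC of these 10 genes ran from 41.9 to 50.4%, with a median of 46.5%, against a median of 40.8% over all 537 genes.

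The strongest peak of Fry reached a signal of 698.9, below the strongest of many sparser genes, and 37 of its 57 peaks had a motif. Gabbr2 reached 860.7, with a motif at 13 of 33. The longest stretch of Fry with no summit of any class was 25.4 kb. Over all 537 genes, the median longest stretch was 131.7 kb.

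At the other end, 4 genes held no long-gene peak. Skint5 and Skint6, members of an immune gene family of skin and thymus, had none over 516.2 and 470.0 kb of qualifying intron, and not a single ranked peak. Cntn6, which encodes a contactin that guides neuronal contacts, and Cpq, a carboxypeptidase, had none in the between-replicate list or in the list of replicate 1, and 1 each in the list of replicate 2; both had 5 ranked peaks. Malrd1, a regulator of bile acid metabolism in the intestine, had 1 in 729.1 kb. The 20 least dense genes had intron GC of 35.03 to 40.6%, with a median of 37.4%. Near-identical copies within a gene family can lower the number of uniquely placed reads; how such reads were handled is not given in the sources used here, so the absence at the Skint genes is uncertain.

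Of the genes with most peaks, Camta1, a calmodulin-binding transcription activator, had 63 (52 in replicate 1, 57 in replicate 2), 7.00 per 100 kb. Inside Camta1 lie 4 other protein-coding genes, whose introns are counted as part of it. Rbfox1, a neuronal splicing regulator, had 54 (40 in replicate 1, 44 in replicate 2) over 1526 kb. Csmd1, a complement-regulating membrane protein, had 51, and Dlg2, a postsynaptic scaffold that anchors NMDA receptors, had 49 over 1973 kb. Lsamp had 47 over 2197 kb and Auts2, a regulator of neuronal transcription, 46 over 1106 kb. Their densities, from 2.17 in Lsamp to 7.00 in Camta1, ranged from below to well above the median gene, so a high count came from length in some and from density in others.

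The strongest exact motif in each of the first 3 of these genes is shown, with signals of 400.1 in replicate 1 and 444.1 in replicate 2 for Camta1, 371.0 and 390.1 for Rbfox1, and 197.3 and 165.0 for Csmd1. The Camta1 and Rbfox1 motifs were on the sense strand and the Csmd1 motif on the antisense strand, each away from the ends of its gene, at 76.2%, 40.5% and 42.6% of its length.
Camta1 (chr4:151141712-151141741, minus strand): agcatctgtCCACCAGAGGGCagcccagga
Rbfox1 (chr16:6503760-6503789, plus strand): ctcaatcagCCAGTAGGTGGCagtgtgcaa
Csmd1 (chr8:16835506-16835535, plus strand): atttttcagCCACTAGGGGGCcgagtgcag

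**Figure D4:**
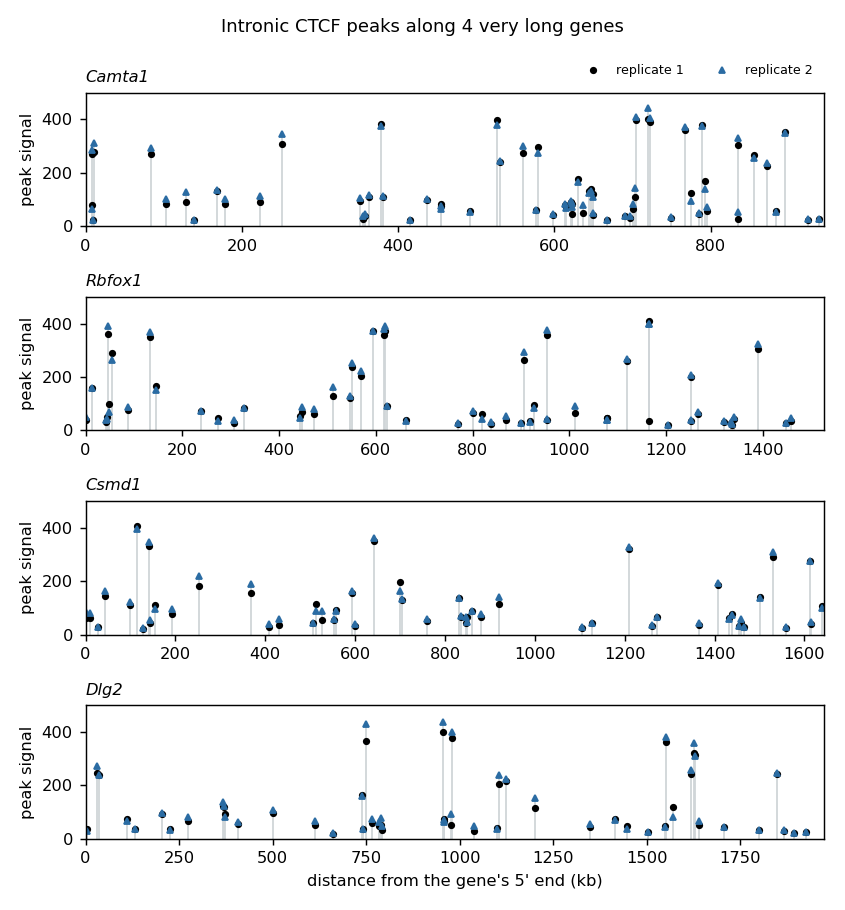
Peak signal in replicate 1 (circles) and replicate 2 (triangles), a score of the peak caller (vertical axis), of each long-gene peak against its distance in kb from the gene's 5′ end (horizontal axis) in Camta1, Rbfox1, Csmd1 and Dlg2. Strong and weak peaks lie among each other along each gene, and the longest stretch with no summit of any class is 99.2 kb in Camta1 and 184.9 kb in Csmd1.

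The single strongest long-gene peak lay in Gm20388, with a signal of 942.9 between replicates, 450.2 in replicate 1 and 495.1 in replicate 2. Next came peaks in Ctnna3, which encodes an alpha-catenin of cell junctions (914.5), Slc24a3, a sodium-calcium exchanger (912.1), Cdh23, the cadherin of hair-cell tip links (910.5), and Slc39a11, a zinc transporter (907.5). Further genes among the 10 with the strongest peaks were Kcnip1 (907.0), Aff3 (893.1), Trappc9, a vesicle-tethering subunit (891.6), and Kcnq3, a potassium channel of the M-current (885.4). The best motif within 50 bp of the Slc24a3 summit had 3 mismatches in the GRCm38 sequence. The rest of this peak and the CAST/EiJ sequence were not searched, so a closer match there remains possible. Gm20388 held 334 long-gene peaks and Kcnq3 held 10. Slc39a11 was dense as well, with 31 at 7.98 per 100 kb.

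Gene groups sorted by function differed in density. The lists do not hold every very long gene of a function, so group values below hold for the listed genes only. They were not matched for gene length or GC, with which density also changed. Across 10 lists, 176 very long genes were named, with a median of 2.18 peaks per 100 kb, against 2.66 for the 361 very long genes in no list. The 6 RNA-binding protein genes had the highest median, 3.33, with 5 of 6 above the median of all 537 genes (2.51). Transcription regulators followed with a median of 3.31, and 18 of 25 above that of all. Both had higher intron GC (42.7% each) than the average of very long genes. Tcf4, a basic helix-loop-helix factor, held 22 at 6.97 per 100 kb, while Sox6, a regulator of glial and interneuron fate, held 5 at 0.913. Among RNA-binding proteins Rbms3 held 32 at 3.08, and Khdrbs2, a splicing regulator, held 3 at 0.665.

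The listed synaptic adhesion genes were sparse. The 29 of them held 533 peaks, their median was 1.94 per 100 kb, and 7 were above the median of all. Replicate 1 alone gave the group 1.53 and replicate 2 alone 1.58 per 100 kb, against 2.26 and 2.33 over all very long genes. Nrxn3, a neurexin that bridges the synaptic cleft, had 37 at 2.34, and the caspr protein gene Cntnap2 had 22 over 2245 kb, 1.03 per 100 kb. Ptprd, a presynaptic receptor phosphatase, had 26 over 2271 kb, 1.16 per 100 kb. Intron GC of the group was 38.7%, below the 40.8% of all. Gene length was not matched either. Over all very long genes, density was 2.43 per 100 kb in genes of 500 to 1000 kb. In genes of 1000 kb or longer it was 2.40, or 1.89 without gene models that hold at least 5 other genes. The part of length in the group's low density was not tested. Some cell adhesion genes are in no list and were often denser. Dscaml1 had 7.30, Cadm1 5.10, Dscam 4.29 and Clstn2 2.79 per 100 kb, while Cadm2 had 1.27.

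The listed transmitter receptor genes had a median of 1.81 with 6 of 17 above the median of all. The highest of them had 5.3 per 100 kb. Gabbr2, named above at 10.2, is in no list and does not count in these values. Grid1, a delta-type glutamate receptor, held 25 at 3.34, and Grin2b, an NMDA receptor subunit, held 22 at 5.12, while Grin2a, its relative, held 12 at 2.93. Gria4, an AMPA receptor subunit, held 3 at 0.812, and Grm5, a metabotropic glutamate receptor, 5 at 0.958. Motifs were found at 37.0% of the group's 203 peaks (95% exact interval 30.3 to 43.98), against 46.5% of all long-gene peaks.

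Ion channel genes lay near the whole set, with a median of 2.44 and 12 of 24 above the median of all. Dpp6, an auxiliary subunit of potassium channels, held 36 at 4.10, Kcnma1, the calcium-activated potassium channel of large conductance, 22 at 3.14, and Cacna1c, an L-type calcium channel, 18 at 3.11. Kcnh7, a potassium channel of the ERG family, held 1 at 0.212, with a signal of 52.9, and it was in neither single-replicate list. The group's peaks carried a motif in 55.2% of cases (49.4 to 60.9).

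Scaffold and signalling genes had a median of 2.67, with 15 of 27 above that of all. Dlgap1, a postsynaptic scaffold, held 42 at 5.08, of which 14 lay in bin 10. Erbb4, the neuregulin receptor of interneurons, held 8 at 0.768, and Rgs7, a regulator of G-protein signalling, had 6 at 1.41. Erbb4 also had the longest stretch with no summit among very long genes, leaving out the models that span many genes, 612.4 kb of its 1076 kb.

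Axon guidance genes had a median of 1.91, with 5 of 15 above that of all. Slit3, a secreted guidance cue, held 29 at 5.06, its receptor Robo1 held 14 at 1.93, and Epha6, an ephrin receptor, 18 at 1.91. Epha3 held 1, at a signal of 566.4, in bin 1. Cadherin and catenin genes had a median of 1.51, with 5 of 12 above that of all. Cdh13, a cadherin without a cytoplasmic tail, held 45 at 4.39, of which 10 lay in bin 10, and Ctnna2, a neuronal alpha-catenin, 34 at 3.23. Cdh8 held 3, none with a motif.

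Genes known as common fragile sites had a median of 1.90, with 2 of 9 above that of all. Macrod2 held 29 over 1998 kb at 1.48. Wwox, a tumour suppressor, held 25 at 2.78, Fhit, another, 13 over 1612 kb at 0.822, and Naaladl2 8 at 0.603. The list labelled matrix and other non-neuronal genes had a median of 1.48, with 1 of 12 above that of all. This label is only the list's name: some of its genes may be active in neurons, and transcription was not measured here. That 1 gene was Fstl4, which encodes a follistatin-like protein, with 21 at 5.05. Gpc6, a glypican, held 23 at 2.20 and Thsd7a, a thrombospondin-domain protein, 3 at 0.716. 

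**Figure D5:**
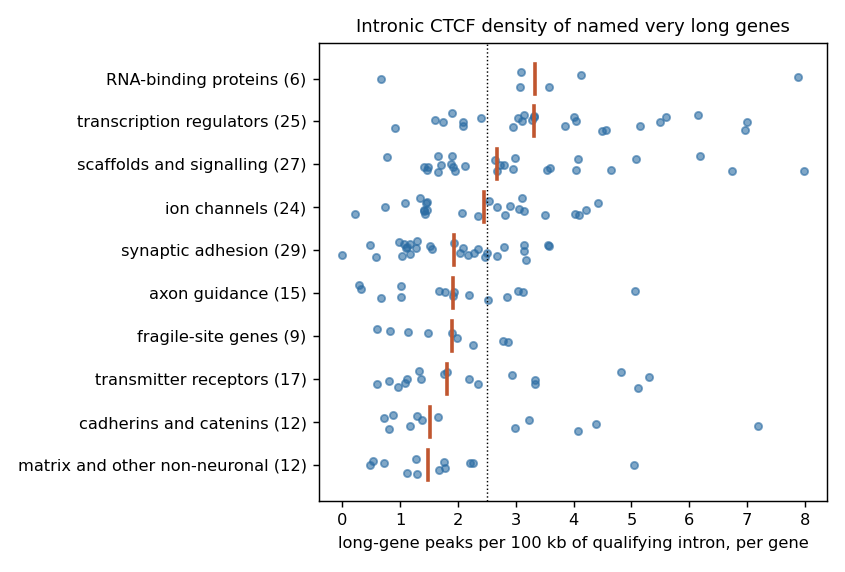
Long-gene peaks per 100 kb of qualifying intron (horizontal axis) for each gene (points, spread vertically for view) of the 10 gene lists (vertical axis, number of genes in brackets). Red bars mark each list's median and the dotted line the median of all 537 genes, 2.51. RNA-binding protein genes have the highest median (3.33) and the list labelled matrix and other non-neuronal the lowest (1.48). List labels are names only and do not report expression.

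Peaks along a very long gene were uneven in spacing. Neighbouring long-gene peaks of the same gene had a median distance of 17.04 kb (quartiles 5.85 and 42.6 kb), with 4.78% of distances under 1 kb and 7.53% over 100 kb. Of the long-gene peaks, 178 shared start and end with another and differed only in summit. They were counted as separate peaks, so some short distances lie within 1 called region. With overlapping peaks reduced, 7894 remained. Of the 11279 introns of the widest transcripts, 2925 held at least 1. The fullest introns outside the 2 widest gene models were the first intron of Asic2, an acid-sensing ion channel, with 38 over 996.0 kb, and the third of Gm37240, with 38 over 1245 kb. The first intron of Rora, a nuclear receptor, held 25 over 542.1 kb. Galnt13, a glycosyltransferase of neurons, had a stretch of 597.8 kb with no summit of any class in its 682.0 kb. Lrrc4c, a netrin-G ligand of the synapse, had one of 573.6 kb, Nkain2, a sodium pump interactor, 558.6 kb and Zfp804b, a zinc-finger gene, 546.0 kb.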

How the data were processed

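The data are CTCF ChIP-seq peaks of mouse hippocampal tissue from 4 libraries, 2 replicates of 2 technical libraries each. The authors deposited peak lists on mm10, thresholded by irreproducible discovery rate (IDR) at 0.05. Per the labels, 1 belongs to each replicate and others to all 4 libraries. Of the latter, the one labelled conservative is the between-replicate list here. The other is called the pooled-read list, and that it comes from pooled reads is an inference. A ranked list from before thresholding gave each replicate's signal and the counts of ranked peaks. The deposited peak signal is a score of the peak caller and the deposited IDR score a whole number; for the aligner, the caller and the control the sources used here give no name. How reads of the 2 parental genomes were aligned is not given. Peaks were called on both technical libraries of a replicate together, so no value exists per library, and both pools carry the same donor entry in the labels, so separate animals are not stated. Read depth is unknown.

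The between-replicate list was used. Of the first input peaks behind long-gene peaks, 78.4% had the same coordinates and signal in the list of replicate 1 and 0% in that of replicate 2; of the second, 78.7% were in that of replicate 2 and 0% in that of replicate 1. Each base was assigned to its longest protein-coding gene, and qualifying sequence had no assembly gap, no exon and no TSS within 1 kb. Density is summits per 100 kb of it. Introns were those of each gene's widest basic transcript; 356 long-gene peaks lay in none of them. The 12-letter motif could lie on either strand, at most 50 bp from the summit and with up to 1 mismatch. Overlap of lists needed 1 bp. Intervals are 95% exact (Clopper-Pearson). No p-value was computed, since there is no group to compare. Code was tested on simulated positions and planted motifs. Python 3.11.15, numpy 2.4.6, scipy 1.17.1 and matplotlib 3.10.9 were used.

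The members, gene lists and limits were chosen with earlier results of these data known. Named genes are the 10 with most peaks, the 10 highest and 5 lowest by density, the 10 with the strongest peaks, and from each list the 2 with most and 1 with fewest peaks; some genes that this rule names are not reported here, and genes named beside these were chosen after their values were seen. The strand shares by bin and the densities relative to bins 4 to 7 were also chosen after the data were seen.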

Additional observations from a re-analysis of the deposited data

How the results depend on the processing

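In these sentences bins are 10 equal parts of a gene, numbered from its 5′ end. Leaving out replicate 1, that is, using replicate 2's own list, gave 6901 long-gene peaks, a ratio of very long to shorter genes of 0.512, a ratio of bin 1 to bin 10 of 0.961, motifs at 47.9% of peaks and sense shares of 50.7% over all bins, 66.2% in bin 1 and 38.2% in bin 10. Bins 1 and 10 had 1.33 and 1.38 times the density of bins 4 to 7. Leaving out replicate 2 gave 6703 long-gene peaks, ratios of 0.512 and 0.988, motifs at 49.8% and sense shares of 50.1%, 64.7% and 37.7% in the same order. Bins 1 and 10 then had 1.34 and 1.35 times the density of bins 4 to 7. The median signal has no value from these lists or from the pooled-read list, whose scales differ. No paired analysis was possible because there is no group to compare within replicates.

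The ratio of very long to shorter genes stayed below 1 under all alternatives run: 0.510 at an IDR of 0.01, 0.516 in the pooled-read list, 0.519 with overlapping peaks reduced, 0.554 and 0.487 for gene limits of 200 and 500 kb, 0.518 over 5 kb from any TSS, 0.5003 inside a single gene and 0.492 without models that hold 5 or more other genes, an alternative chosen after seeing the data. With 500 kb as the limit 4336 peaks qualified. The ratio of bin 1 to bin 10 was 0.941 and 0.925 at 200 and 500 kb, 0.855 over 5 kb from any TSS, 0.936 inside a single gene and 0.937 without those models. Bin 1 over bins 4 to 7 was 1.34 in the pooled-read list, 1.29 with overlaps reduced, 1.26 and 1.301 at 200 and 500 kb, 1.17 over 5 kb from any TSS, 1.27 inside a single gene and 1.285 without those models. Bin 10 over bins 4 to 7 was 1.39 in the pooled-read list and 1.41 at 500 kb. The motif share was 48.9% at an IDR of 0.01, 51.2% in the pooled-read list, 9.33% with 0 mismatches and 74.0% with 2. The median signal was 179.6 at an IDR of 0.01 and 154.3 with overlaps reduced.

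The sense share over all bins lay beside 50% and crossed it, at 49.7% over 5 kb from any TSS, 48.5% with 0 mismatches and 49.8% with 2, and was 51.4% at 500 kb; the cause was not tested. The sense share in bin 1 stayed above 50% and that in bin 10 below it in all of these. Bin 1 gave 61.62% at 500 kb, 61.65% over 5 kb from any TSS, 64.9% inside a single gene, and 56.8% and 61.6% with 0 and 2 mismatches. Bin 10 gave 38.2% at an IDR of 0.01 and in the pooled-read list, 37.1% and 45.4% at 200 and 500 kb, 38.6% over 5 kb from any TSS and also without those models, 39.1% inside a single gene, and 43.9% and 40.9% with 0 and 2 mismatches. The strand shares in bins 1 and 10 and the densities relative to bins 4 to 7 were chosen after the data were seen. Read depth is unknown, so the precision of a single peak's signal could not be given.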
